A study of Mus musculus with 4 samples.

Results

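The 9 genes described here, Ctcf, Smc3, Rad21, Stag1, Nipbl, Mau2, Wapl, Pds5a and Pds5b, encode CTCF and core parts of the cohesin machinery, and they were taken by name from 21827 protein-coding genes with an annotated transcription start site (TSS). For each gene, the ATAC-seq peaks within 1000 bp of a TSS (promoter peaks) and within 50000 bp of a TSS were collected from the peak lists of 4 mouse libraries, and presence, rank and summit pileup were compared between genotypes. The libraries were made from embryoid bodies, aggregates of differentiating embryonic stem cells, at day 4. Of these, 2 came from wild-type (WT) cells and 2 from cells in which lysine 20 of CTCF was changed to arginine (CTCF-K20R), and the replicates were separate experiments. The mutant was made by CRISPR/Cas9 editing of E14Tg2A stem cells with selection of clones, the stem cells were grown on inactivated mouse embryo fibroblasts before differentiation, and the number of clones behind the K20R libraries is not given in the sources used here. The listed donor primers include an HA tag at the start codon of Ctcf, and whether the line carries that tag beside the residue change is not given in the sources used here. The comparison addresses whether the genes of the machinery that CTCF works with were themselves more or less accessible in the mutant.

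CTCF is a zinc finger protein that binds DNA at an oriented motif and halts cohesin there, which sets the anchors of chromatin loops. Cohesin is a ring made of SMC proteins, a kleisin (RAD21) and a STAG protein. It is loaded by NIPBL with MAU2, released by WAPL with the PDS5 proteins, and extrudes DNA into loops while it stays on chromatin. These proteins act in all dividing cells, and in embryonic stem cells they shape the contacts between promoters and enhancers.

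The edited place lies in Ctcf itself, at chr8:105636568-105682922 (mm10, plus strand). Codon 20 is in exon 3 of 12, and the stretch below gives the first 120 bases of the coding sequence at chr8:105663763-105663882 in the reference, with the lysine codon at chr8:105663820-105663822 in capitals. The 2 guide targets, read from the listed reverse oligos because the forward oligo of guide 1 as listed has 1 base more than the genome, lie in intron 2 at chr8:105663616-105663638 (plus strand) and chr8:105663665-105663687 (minus strand), with the PAM in capitals. They are shown because they fix where the lesion sits relative to the peaks.
Ctcf coding start: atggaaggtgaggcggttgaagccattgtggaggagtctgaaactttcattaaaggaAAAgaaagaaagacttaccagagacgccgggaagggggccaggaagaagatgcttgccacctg
Guide 1 target: tgcctgtgggttctaagtgcTGG
Guide 2 target: actaaaatcatttgagtggcAGG

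No library had a peak over exon 3, so these lists carry no accessibility value for the edited exon. The nearest summit to the codon was 2490 bp away in both WT libraries, 2487 bp away in K20R replicate 1 and 22125 bp away in K20R replicate 2. That nearest region, at chr8:105660682-105661713 in intron 2, was weak, with summit pileups of 15 and 23 reads in WT and of 19 reads in K20R replicate 1. K20R replicate 2 lists no peak there, and 6 peak numbers are absent from its list between the neighbouring peaks, so a peak may have been called and later removed.

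**Figure D1:**
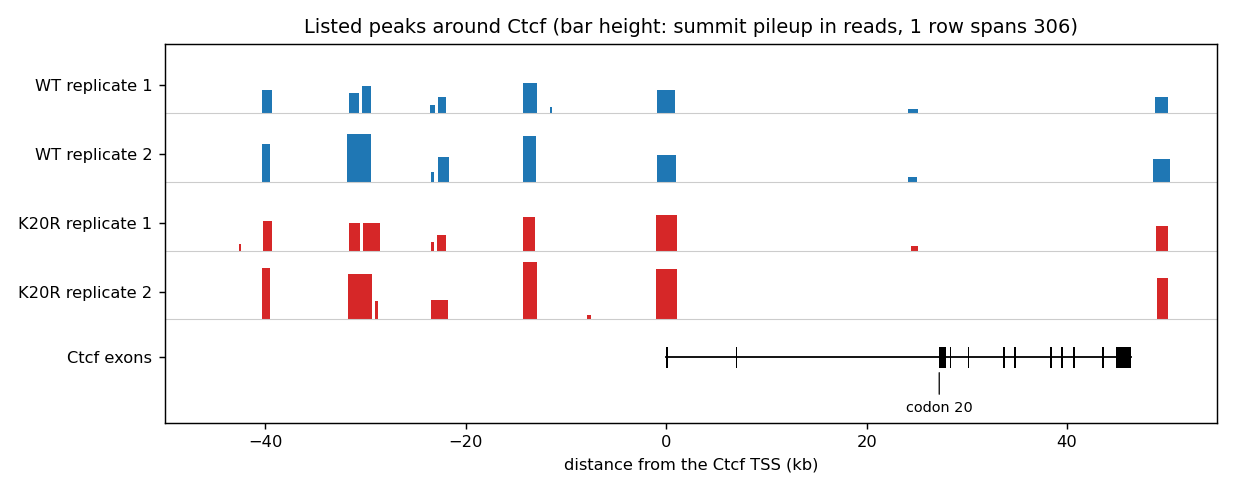
Listed peaks of each library around Ctcf, with the distance from the TSS in kb on the x axis, bar height for the summit pileup in reads, WT in blue, K20R in red, and the exons of Ctcf in black below. The promoter peak at 0 kb is taller in both K20R libraries (159 and 225 reads) than in both WT libraries (103 and 118 reads), and no bar covers codon 20.

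The 4 lists held between 51823 and 66703 peaks, and the median fold enrichment was higher in both second replicates (5.85 for WT, 6.04 for K20R) than in both first replicates (4.68 and 4.73). The summit pileup, the number of sequenced fragments stacked at a peak's highest point, was recovered from the fold and p-value of each peak, and 100% of the values came out whole within 0.01. Total read numbers are not in the lists, so pileups were compared after log2 transformation and centring on the median of the autosomal regions with a peak in every library, called common regions here. On that scale the median shared promoter still stood 0.11 higher in K20R. Promoter ranks, given as percentiles of the −log10 p among the 14480 genes whose promoter carried a peak in each of the 4 libraries (shared promoters), carry no such offset. Promoter peaks were present in every library for 4 of 4 early mesoderm, 3 of 3 pluripotency and 5 of 6 fibroblast genes. Col3a1 had none. As 14480 of all 21827 protein-coding genes had one in every library, presence says little about cell type. In rank, T and Mixl1 were lower in both K20R libraries than in both WT libraries, and Mesp1, Eomes, Pou5f1 and Sox2 higher. Nanog overlapped, and of the fibroblast genes 1 was lower, 1 higher and 3 overlapped. Over all shared promoters, 22.9% were lower and 23.8% higher. Whether the mix of cells differed between genotypes was not tested. A promoter peak is no measure of expression, and the part of feeder cells in the values below was not tested.

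All 9 genes had a promoter peak in every library. Their ranks spanned most of the range: Stag1 ranked highest, at 91.4 to 97.0 over the 4 libraries, and Nipbl lowest, at 25.2 to 38.8. This order is by p-value. By fold, Stag1 lay below Wapl, Pds5b and Mau2 in every library. In descending order of the mean rank the genes were Stag1, Wapl, Pds5b, Mau2, Ctcf, Smc3, Rad21, Pds5a and Nipbl. Only Rad21 (53.2 to 70.2) and Pds5a (33.1 to 50.4) were neighbours in this order whose ranges over the 4 libraries did not overlap.

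Between genotypes, Wapl and Pds5b ranked lower in both K20R libraries than in both WT libraries, Ctcf and Mau2 ranked higher, and the other 5 genes overlapped. Over all 14480 shared promoters, 22.9% were lower and 23.8% higher by this rule, so 2 of 9 in each direction is close to the background. When each peak was ranked within its whole list instead, 4 members were lower (Nipbl, Wapl, Pds5a and Pds5b) and 2 higher (Ctcf and Mau2), against 32.2% and 15.7% of all shared promoters. With 2 against 2 libraries an exact two-sided permutation test cannot give a p below 0.333, so sizes and overlap are reported and no member passed a test.

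**Figure D2:**
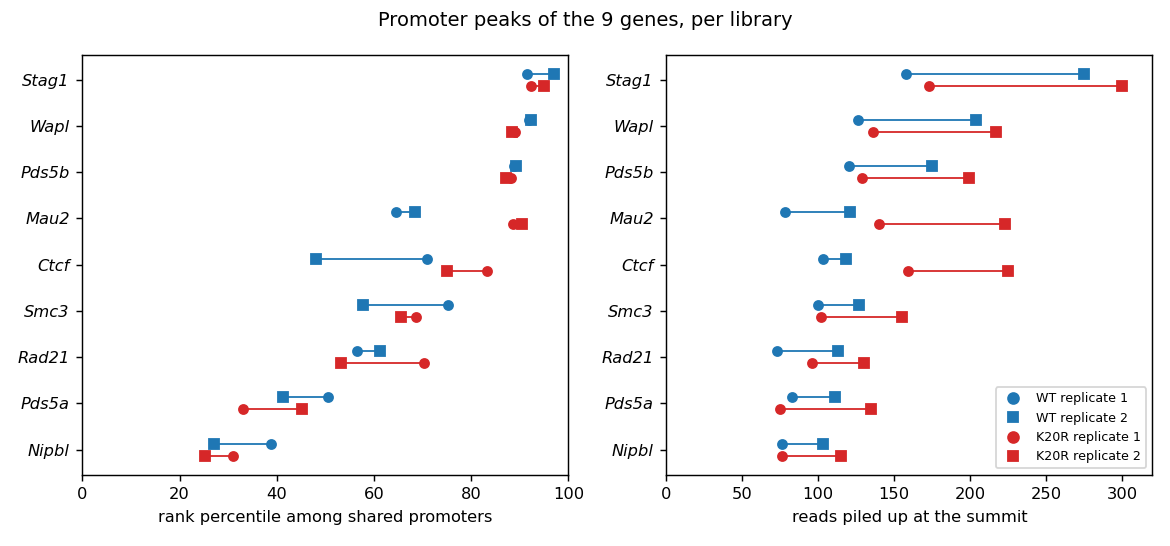
Promoter peaks of the 9 genes in each library, as the rank percentile among 14480 shared promoters (left) and as the summit pileup in reads (right), with WT in blue, K20R in red, circles for replicate 1 and squares for replicate 2. Ctcf and Mau2 are the genes whose K20R symbols lie to the right of the WT symbols in both panels, while Wapl and Pds5b differ by a few rank points to the left. In rank the gap at Ctcf is narrow, between 70.9 in WT replicate 1 and 74.9 in K20R replicate 2.

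At the Ctcf promoter the rank percentile was 70.9 and 48.1 in the WT libraries and 83.3 and 74.9 in the K20R libraries, a mean difference of 19.6. The summit pileup was 103 and 118 reads in WT, with exact Poisson 95% intervals of 84.1 to 125 and 97.7 to 141, and 159 and 225 in K20R, with intervals of 135 to 186 and 197 to 256, which cover counting error only. The K20R values lay above the WT values in every pairing, and the difference on the centred log2 scale was 0.73. The WT replicates themselves lay farther apart in rank than the means of the genotypes, and the rank difference was 8.20 without WT replicate 2 and 31.0 without WT replicate 1.

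Ctcf does not stand alone in this. It lies in a stretch of chromosome 8, at chr8:61927660-112046551 (50.1 Mb), in which the 1040 common regions stood higher in K20R by a median of 0.66 in log2 pileup and by 0.62 in log2 local background, the level against which a peak is called. This stretch was delimited from the same libraries, so its level is a description. Within it, 85.2% of 420 shared promoters ranked higher in K20R and 2.14% lower, and the median promoter difference was 0.70 in log2 pileup (quartiles 0.55 and 0.82). The Ctcf promoter stood 0.03 above that median, at percentile 55.5 of the stretch, and its libraries overlapped once each was centred on the median of the stretch (0.38 and 0.03 in WT, 0.31 and 0.22 in K20R).

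The local background at the Ctcf promoter was 0.88 higher in K20R on the log2 scale, more than the pileup, and the log2 fold enrichment over that background differed by -0.14, with the genotypes overlapping. Ranked by the fold column in place of the p-value, Ctcf fell by 11.0 percentile points, with the genotypes overlapping. The direction at this promoter therefore depended on whether the local background was divided out. The edited locus and the raised stretch coincide, and these 4 libraries cannot tell apart an effect of the residue and a property of the cells that carry the edit.

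Mau2 encodes the partner of NIPBL in the cohesin loader. It lies at chr8:70016123-70042734 (minus strand), 35.6 Mb from the Ctcf TSS in the same stretch. Its promoter rank was 64.6 and 68.4 in WT compared with 88.6 and 90.5 in K20R, a mean difference of 23.1 and the largest among the 9 genes. The pileup was 78 and 121 reads in WT against 140 and 223 in K20R, a log2 difference of 0.82 with no overlap. Against its stretch Mau2 stood 0.12 higher, at percentile 74.5, and its centred values of 0.12 and 0.21 in K20R stayed above the WT values of -0.02 and 0.07. The local background was 0.93 higher and the log2 fold differed by -0.07 with overlap. Ranked by the fold column, the direction turned and Mau2 was lower in both K20R libraries, with a difference of -4.76.

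**Figure D3:**
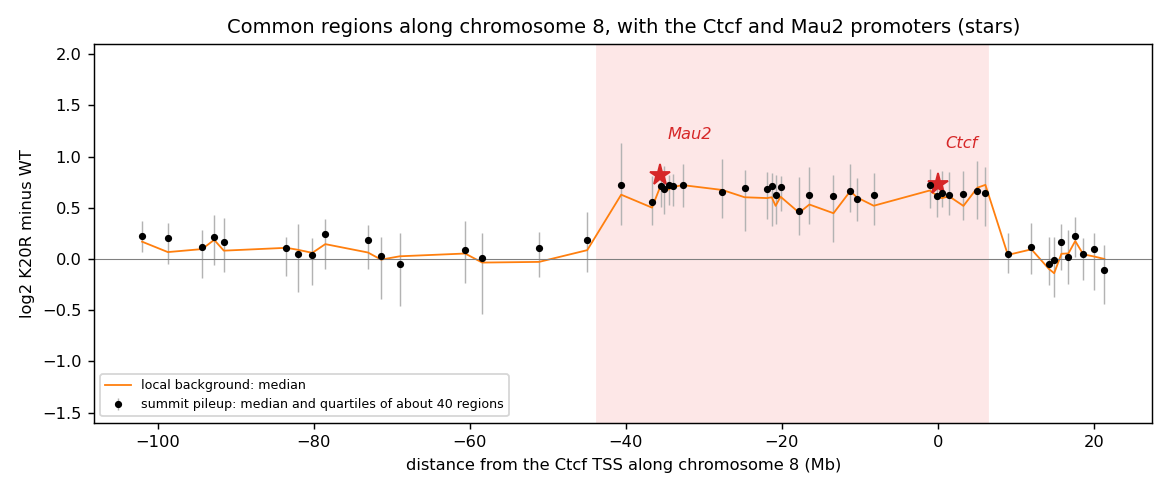
Log2 difference between K20R and WT along chromosome 8, by distance from the Ctcf TSS in Mb, as the median and quartiles of consecutive sets of 40 or 41 common regions (points and bars) and the median local background (line), with the raised stretch shaded and the Ctcf and Mau2 promoters as stars. Both stars, at 0.73 and 0.82, lie close to the points of the stretch, and the sets downstream of the stretch lie between -0.10 and 0.22.

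The Ctcf promoter is GC-rich, with 75.3% G and C in its promoter window against a median of 52.7% over all windows. The Mau2 window at the promoter peak, at 56.0%, lies near that median. Neither promoter region held an exact match to the 12-base CTCF consensus at its summit. The bases before the RefSeq start are shown for both because these are the member promoters that moved most, taken from the RefSeq table (GRCm38.p6) and cut to the part that carries no annotated exon. For Ctcf this is chr8:105636288-105636537 (plus strand) and for Mau2 chr8:70042735-70042812 (minus strand). Capitals mark GGGCGG on either strand, the core of the GC box bound by SP factors, which 35.7% of all 32851 promoter windows of 300 bases hold.
Ctcf upstream: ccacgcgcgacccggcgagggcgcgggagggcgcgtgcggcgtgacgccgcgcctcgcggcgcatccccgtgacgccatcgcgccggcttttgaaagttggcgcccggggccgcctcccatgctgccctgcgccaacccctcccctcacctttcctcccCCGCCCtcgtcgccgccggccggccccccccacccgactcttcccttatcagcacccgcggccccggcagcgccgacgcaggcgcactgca
Mau2 upstream: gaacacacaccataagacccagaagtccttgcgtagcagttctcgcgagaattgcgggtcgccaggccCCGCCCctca

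The Mau2 stretch is short because the gene Sugp1, on the other strand, starts 79 bp away, and the 2 genes share the promoter peak. A value for that peak cannot be assigned to either gene. The Ctcf peak likewise covers the start of Agrp, a neuropeptide gene on the other strand that starts 814 bp into Ctcf. Across the promoter table, 7 of the 9 members had an entry, with 8 windows in all. The observed to expected CpG ratio of the windows at the promoter peaks was 0.91 for Mau2 and between 1.01 and 1.16 for the other 6 genes, which placed these 7 windows between percentiles 88.0 and 99.1 of all windows. GGGCGG was found in 7 of the 8 windows, CCAAT in 3 (Pds5b, Stag1 and Wapl, against 37.4% of all windows) and CACGTG in 1, a second Mau2 window inside the gene (7.15% of all windows). CCGGAAG, GCATGCGC, AAGATGGC and TGACGTCA were in none of the 8 and in 8.86%, 2.71%, 2.75% and 1.79% of all windows, with both strands searched.

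Outside chromosome 8, the ring genes among the members overlapped between genotypes in promoter rank. Smc3, one of the ATPase arms of the ring, ranked at 75.3 and 57.6 in WT compared with 68.7 and 65.5 in K20R, and its pileup was 100 and 127 reads in WT against 102 and 155 in K20R. Both K20R ranks lay inside the WT range. Rad21, the kleisin that closes the ring, ranked at 56.5 and 61.2 in WT compared with 70.2 and 53.2 in K20R, so that the K20R libraries lay on either side of both WT libraries. Its pileup was 73 and 113 reads in WT against 96 and 130 in K20R, and after centring both K20R values (1.30 and 1.16) lay above both WT values (0.94 and 1.01), a difference of 0.25. By this pileup rule 4 members (Ctcf, Mau2, Rad21 and Pds5b) were higher and 0 lower, against 40.8% and 14.1% of all shared promoters, and the log2 fold at Rad21 differed by -0.10.

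Stag1 encodes one of the alternative STAG subunits. Its promoter peak ranked at 91.4 and 97.0 in WT compared with 92.3 and 95.04 in K20R, and its pileups of 158 and 275 reads in WT against 173 and 300 in K20R were the tallest among the members. The replicate numbers, not the genotypes, separate these values. Stag1 also had a second common region within 1000 bp of a TSS, at chr9:100644171-100644617, which was narrower at 447 bp and weaker at 41, 62, 57 and 81 reads, with both centred K20R values above both WT values by 0.39 on average.

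The loader gene Nipbl had the lowest ranks, 38.8 and 27.2 in WT compared with 30.9 and 25.2 in K20R, with pileups of 76 and 103 reads in WT against 76 and 115 in K20R. The genotypes overlapped and the log2 difference was 0.04. Its promoter peak was the widest of the set, from 2525 to 2860 bp, and the summit lay at -239 bp from the TSS in WT replicate 1 and K20R replicate 2 and at about 1 kb upstream (-1050 and -1049 bp) in the other pair. The shift of the summit thus occurred within each genotype.

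Among the release factors, Wapl ranked at 91.8 and 92.3 in WT compared with 89.0 and 88.5 in K20R. The difference of -3.38 was small but larger than the spread within either genotype (SD 0.38 and 0.35, n = 2 each). The pileup was 126 and 204 reads in WT against 136 and 217 in K20R, and the log2 difference of 0.06 lay below the median of 0.11 over all shared promoters. Wapl lies at chr14:34673928-34747983, near one end of a stretch of chromosome 14 (chr14:34634838-66176004) whose common regions stood lower in K20R by a median of 0.77, given as -0.77 on the log2 scale. Centred on the median shared promoter of that stretch, the log2 difference of Wapl was 0.83, so the promoter itself did not share that shift. Within 1 Mb of Wapl, a window that reaches beyond the stretch, the median of 43 common regions was 0.15.

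Pds5b, which binds cohesin beside WAPL, ranked at 88.9 and 89.2 in WT compared with 88.3 and 87.1 in K20R, a difference of -1.35. The pileup was 120 and 175 reads in WT against 129 and 199 in K20R, and the centred log2 difference was 0.10 in the other direction, without overlap and at the level of the median shared promoter. Pds5a, its paralogue, ranked at 50.4 and 41.3 in WT compared with 33.1 and 45.1 in K20R, with pileups of 83 and 111 reads in WT against 75 and 135 in K20R. Here the genotypes overlapped, with a log2 difference of 0.02. Pds5b ranked above its paralogue in each of the 4 libraries, and the rank difference between genotypes was -6.75 at Pds5a, a value that rests on single libraries, at -0.75 without K20R replicate 1 and -2.20 without WT replicate 1 compared with -12.8 without K20R replicate 2 and -11.3 without WT replicate 2. At Pds5b it was -0.77 without K20R replicate 2. Ranked by the fold column, the genotypes overlapped at both Wapl and Pds5b, so that neither lower call was kept there, while Pds5a was lower without overlap.

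The upstream bases of Wapl (chr14:34673764-34673927, plus strand) and Pds5b (chr5:150673577-150673738, plus strand) are shown because these promoters ranked lower in K20R without overlap. Capitals mark GGGCGG and CCAAT, the box bound by NF-Y, on either strand, and the Wapl stretch ends where the divergent noncoding RNA 5830448L01Rik begins.
Wapl upstream: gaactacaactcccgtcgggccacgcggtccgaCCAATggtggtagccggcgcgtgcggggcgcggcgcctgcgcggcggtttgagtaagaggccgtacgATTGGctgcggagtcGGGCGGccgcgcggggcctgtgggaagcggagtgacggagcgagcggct
Pds5b upstream: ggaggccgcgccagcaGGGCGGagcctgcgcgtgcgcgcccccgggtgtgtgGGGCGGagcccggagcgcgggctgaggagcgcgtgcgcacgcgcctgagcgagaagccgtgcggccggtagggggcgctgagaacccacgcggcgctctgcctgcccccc

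**Figure D4:**
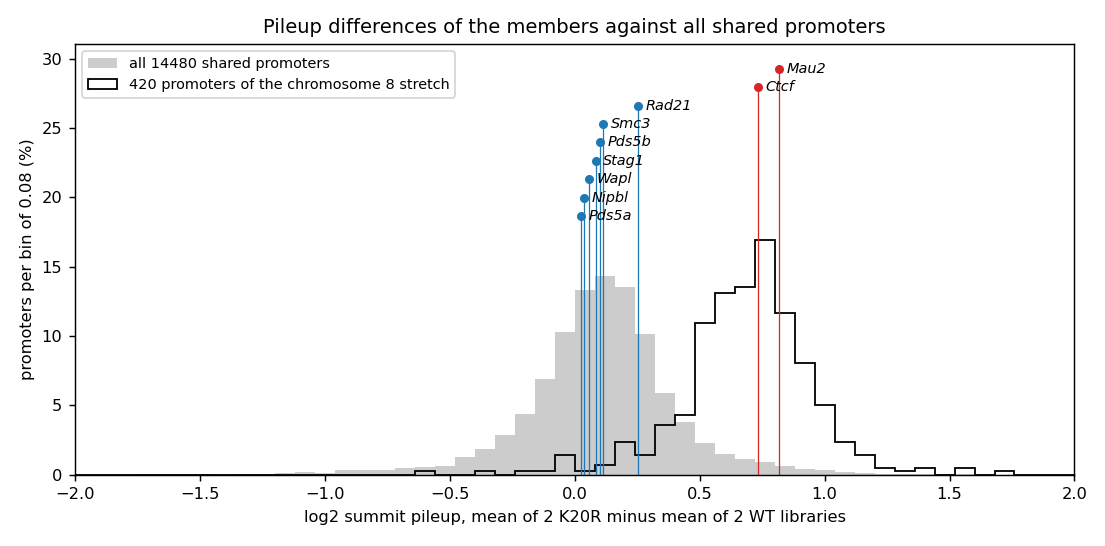
Distribution of the log2 pileup difference (mean of 2 K20R minus mean of 2 WT libraries, x axis) over all 14480 shared promoters (grey) and the 420 promoters of the chromosome 8 stretch (outline), as percent of promoters per bin, with the members marked by stems. The 7 members outside chromosome 8 lie between 0.02 and 0.25, near the median of 0.11 over all promoters, and Ctcf and Mau2 lie at percentiles 55.5 and 74.5 of the chromosome 8 distribution.

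Beyond the promoters, 61 merged regions lay within 50000 bp of the 9 genes, from 3 at Nipbl and Pds5b to 10 at Ctcf, with a median of 7. Over all protein-coding genes the median was 6, with quartiles of 2 and 10. Of the 61 regions, 33 were common, 11 were listed in a single library, 6 had a peak in both WT libraries and in no K20R library (WT-restricted), and 2 the reverse (K20R-restricted). The share of WT-restricted regions was 9.84%, against 10.4% of all 80380 regions, and that of K20R-restricted regions 3.28% against 3.10%, so neither share stood apart from the background.

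**Figure D5:**
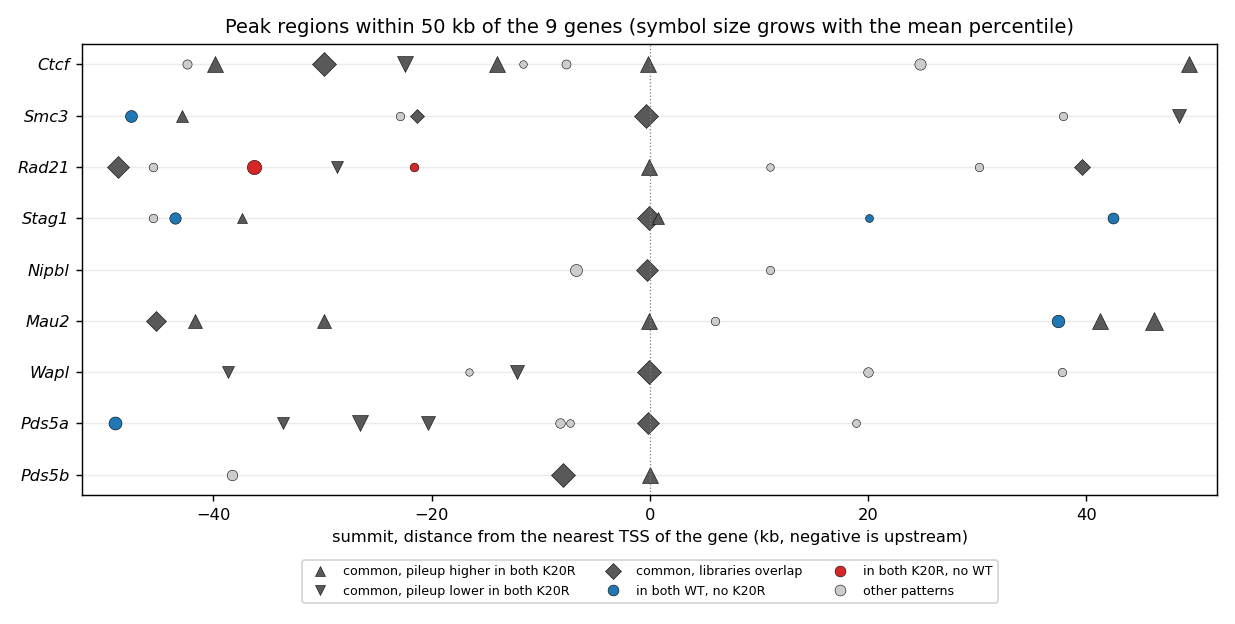
Peak regions within 50 kb of each gene, placed by the distance of the summit from the nearest TSS in kb. Grey triangles mark common regions whose centred pileup was higher (up) or lower (down) in both K20R libraries, diamonds those that overlapped, and coloured circles the 6 WT-restricted (blue) and 2 K20R-restricted (red) regions, with larger symbols for a higher mean percentile in the lists. The 3 common regions upstream of Pds5a and the 2 upstream of Wapl all point down.

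Stag1 held 3 of the 6 WT-restricted regions, all in its introns. The strongest, at chr9:100599727-100600393, had pileups of 17 and 34 reads in WT, and those at chr9:100685865-100686375 and chr9:100663584-100663966 had 17 and 18 and 9 and 10 reads. All are weak peaks, at mean percentiles of 41.4, 37.3 and 6.68 in the WT lists. The other 3 lay between genes, at chr5:65746838-65747515 upstream of Pds5a (34 and 60 reads), chr8:70004881-70005571 downstream of Mau2 (33 and 69 reads) and chr19:53552184-53553331 upstream of Smc3 (26 and 41 reads).

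Both K20R-restricted regions lay upstream of Rad21. The region at chr15:52027578-52028416, at -36305 bp, had 31 and 58 reads in K20R and ranked at percentiles 64.5 and 76.7 of the K20R lists. The region at chr15:52012945-52013549, at -21578 bp, had 12 and 13 reads. Between them lay a common region, at chr15:52019880-52020849, that was lower in both K20R libraries, with 26 and 36 reads in WT against 14 and 24 in K20R, a log2 difference of -0.78.

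Absence from a list is weaker evidence than presence here, since the lists hold between 50.5% and 60.8% of their consecutive peak numbers and how peaks were removed is not given in the sources used here. Of the 6 WT-restricted regions, 1 (upstream of Smc3) had no missing number between the neighbouring peaks in either K20R list. Of the 2 K20R-restricted regions, the weaker one near Rad21 had none missing in either WT list, and the stronger one had 1 missing number in each.

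Of the common regions, 16 lay outside every promoter window, and 8 of these were lower and 5 higher in K20R by centred pileup. For the 7 genes outside chromosome 8, 7 of 11 were lower and 2 higher. Over all such distal regions outside the chromosome 8 stretch, 29.2% were lower and 31.9% higher, and within that stretch 73.1% were higher and 7.95% lower. The members' regions are few, and several lie close together on a chromosome.

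Most of these lower regions lay upstream of Pds5a (3) or Wapl (2), and those of Wapl lie in the lowered stretch of chromosome 14. Upstream of Pds5a, the region at chr5:65717751-65718896 had 46 and 92 reads in WT compared with 25 and 50 in K20R, and after centring, which takes out the taller peaks of the second replicates, 0.28 and 0.72 compared with -0.64 and -0.21, a log2 difference of -0.92. The calls below rest on such centred values, with the reads given as listed. The region at chr5:65731164-65732178 had 26 and 44 reads in WT against 17 and 28 in K20R, a difference of -0.68. The strongest of them, at chr5:65723968-65725304, had 87 and 144 reads in WT compared with 79 and 109 in K20R and fell by 0.31. All 3 of these regions were lower in K20R without overlap, at -20360, -33596 and -26601 bp from the TSS, while the libraries overlapped at the promoter of Pds5a itself.

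Upstream of Wapl, chr14:34660361-34663039 had 70 and 80 reads in WT against 39 and 63 in K20R, a log2 difference of -0.64. The region at chr14:34634838-34636013 had 27 and 38 reads in WT compared with 21 and 34 in K20R, a difference of -0.31. Both fall within the outermost window of the lowered stretch of chromosome 14, whose edge is the start of the second of them, and the median within 1 Mb of Wapl was not lowered, as given above. At Smc3, the region at chr19:53648249-53649874, past the end of the gene, was lower (43 and 75 reads in WT, 30 and 47 in K20R, -0.64), and the region at chr19:53556976-53557984 was higher (19 and 23 in WT, 35 and 41 in K20R, 0.81).

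Around Stag1 the only distal common region, at chr9:100605672-100606426, was weak and higher in K20R, with 12 and 13 reads in WT against 17 and 21 in K20R. The strongest other common region near Rad21 (chr15:52039972-52040752, the promoter of Aard) and near Pds5b (chr5:150665046-150666002, the promoter of N4bp2l2) overlapped between genotypes. Nipbl had no common region within 50000 bp other than its promoter peak.

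On chromosome 8 the regions around Ctcf and Mau2 differed on either side of the stretch median of 0.66, and the median common region within 1 Mb stood at 0.65 around Ctcf and 0.69 around Mau2. The strongest common region near Ctcf, at chr8:105596279-105597273, had 100 and 167 reads in WT compared with 132 and 227 in K20R, a log2 difference of 0.38. The region at chr8:105612965-105614944 was lower in K20R, with 72 and 110 reads in WT against 69 and 87 in K20R, a difference of -0.24 inside a raised stretch. Near Mau2 the strongest region, the promoter of Gatad2a at chr8:69995664-69997140, had 209 and 303 reads in WT compared with 288 and 460 in K20R, a difference of 0.49. Above the stretch median stood the promoters of Carmil2 near Ctcf (0.73) and of Tm6sf2 (1.02) and Hapln4 (0.73) near Mau2. The median over the shared promoters of the stretch was 0.70. The promoter of Ripor1 near Ctcf stood below both medians at -0.07, with the libraries overlapping.

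Within 100 bp of the strongest summit, the 12-base CTCF consensus was found in 2 of the 61 regions, against 6.02% of all regions. Both were among the 16 distal common regions, of which 10.6% hold it genome-wide, and it was found in none of the 10 promoter regions of the members and in 1.25% of common promoter regions overall. The sites are shown with the consensus in capitals because they are the exact matches to it at accessible summits near these genes. Sites that depart from this pattern were not searched for, so a region without a match may still hold a CTCF motif. One lies at chr8:105622552-105622591 (plus strand), in an intron of Agrp upstream of Ctcf, and the other at chr19:53579100-53579139 (minus strand), between genes upstream of Smc3.
Site upstream of Ctcf: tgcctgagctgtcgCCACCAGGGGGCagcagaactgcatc
Site upstream of Smc3: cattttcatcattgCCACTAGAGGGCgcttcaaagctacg

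The region with the site upstream of Ctcf, with its summit at -13972 bp, had 134 and 203 reads in WT against 151 and 257 in K20R. Its log2 difference of 0.21 was without overlap and below the stretch median of 0.66. The region with the site upstream of Smc3, at -21307 bp, had 10 and 18 reads in WT compared with 11 and 18 in K20R, so it was weak and did not separate the genotypes. A match to the consensus is a description of the sequence and no measure of CTCF binding.

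Of 22 other genes of the CTCF and cohesin pathway, 20 were shared promoters. The counts depended on the ranking. Ranked within the whole list, 5 were lower and 3 higher in K20R, against 32.2% and 15.7% of all shared promoters. Other rankings, such as by fold, and leaving out a library were not tried for this list. By rank among the shared promoters, 3 were lower and 8 higher, against the background of 22.9% and 23.8% given above. The lower genes were Rec8, a meiotic kleisin (63.9 and 86.9 in WT, 31.1 and 55.4 in K20R), Esco2, which acetylates SMC3 (88.8 and 89.2 against 65.2 and 53.6), and Sgo1, which protects cohesin at centromeres (97.3 and 97.5 against 97.0 and 95.9). Rec8 and Esco2 both lie in the lowered stretch of chromosome 14.

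The higher genes were Smc1a, Smc1b, Cdca5, Pttg1, Haspin, Yy1, Ep300 and Hdac6, none of them in a shifted stretch. Smc1a, the partner of SMC3 in the ring, ranked at 47.1 and 51.8 in WT against 65.4 and 57.8 in K20R. Cdca5, which encodes sororin, the factor that counters WAPL, ranked at 43.7 and 49.7 in WT compared with 58.4 and 60.5 in K20R. Ep300, an acetyltransferase gene, ranked at 39.5 and 40.5 in WT against 62.1 and 43.3 in K20R, while its paralogue Crebbp overlapped (79.2 and 61.4 against 67.0 and 51.7, a difference of -10.9). Hdac6, a deacetylase gene, ranked at 57.1 and 60.3 against 62.5 and 72.9. The differences ran from 4.92 rank points at Pttg1 to 13.5 at Smc1b, whose promoter ranked among the weakest (3.52 and 1.82 in WT, 17.6 and 14.7 in K20R).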

How the data were processed

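ATAC-seq was measured in 2 WT and 2 K20R libraries. The authors trimmed reads with Trim Galore, aligned them to mm10 with Bowtie2, removed low-quality, duplicate and blacklisted reads and called peaks per library with MACS2. The deposited lists give each peak's fold (the ratio of summit pileup to local background) and its −log10 p-value and q-value. The peak caller's fold and Poisson p-value were solved for whole pileups. TSSs came from GENCODE vM21. A gene's promoter peak was its strongest within 1000 bp, peaks overlapping by 1 bp were merged into regions, and a difference was called when both K20R libraries lay outside both WT libraries on one side. Sequences came from the RefSeq genome and promoter table of GRCm38 and the study's oligo list. Calculations used Python 3.11.15 with numpy 2.4.6, pandas 2.3.3 and scipy 1.17.1, and were checked on simulated data. The members and lists were chosen with earlier results of these data known. Named regions were the restricted ones and the strongest common one per gene. The others were named after their values were seen. Values cover counting and replicate spread only, and depth is not in the lists. The genes with ranks most like those of Ctcf are not reported here.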

Additional observations from a re-analysis of the deposited data

How the results depend on the processing

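The counts of members lower (2) and higher (2) kept within 1.5 times with promoter windows of 500 and 2000 bp, the TSS of the longest coding sequence, a −log10 q of at least 10 and equal list lengths, all planned, and with summits inside the window, chosen after seeing the data. Ranking within the whole list gave 4 lower. Ranking by fold gave 0 higher and 2 lower (all genes 20.0% and 19.8%), but the lower genes were then Pds5a and Mau2, in place of Wapl and Pds5b. Without Ctcf and Mau2, an alternative chosen after seeing the data, 0 members were higher. Leaving out a library gave 3 to 5 lower and 2 to 3 higher, with 5 lower without WT replicate 2 and 4 without K20R replicate 1, while the shares over all genes rose to between 35.1% and 37.9% lower and 35.6% and 37.9% higher. The WT-restricted regions (6) and K20R-restricted regions (2) went to 0 and 0 within 10000 bp, 4 K20R-restricted within 100000 bp, 0 WT-restricted and 3 K20R-restricted at a −log10 q of at least 10, and 1 and 1 where no peak number was missing. Leaving out a library gave 7 to 10 and 4 to 6. The shares over all regions were not worked out under these settings, so no direction is read from these counts. The cause was not tested, except that fewer libraries or regions enter some of these counts. Among members whose genotypes did not overlap, single values reversed by fold alone. The rank of Ctcf fell by 11.0 points, with the genotypes then overlapping. The rank difference of Mau2 was -4.76, without overlap. The log2 fold differed by -0.14 at Ctcf, -0.10 at Rad21, -0.058 at Pds5b and -0.071 at Mau2, all with overlap. Where the genotypes overlapped, 19 single values changed sign, 12 without 1 library, 5 by fold and 2 in the whole list (ranks of Smc3, Rad21, Stag1 and Nipbl, log2 pileups of Stag1, Nipbl, Wapl and Pds5a). In promoter ranks, which do not carry the taller peaks of the second replicates, the replicate numbers carried no shared deviation (r = 0.04 over 14480 genes). Taking them as a replicate block gave 3 members lower (Nipbl added) and 2 higher, against 30.2% and 31.2% of all genes. The restricted regions were then 6 and 2.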

Other observations

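The condensin and SMC5/6 genes, which encode the sister complexes of cohesin, were ranked in the same way. Of 17 genes, 16 were shared promoters, listed in every library, and 8 were lower and 3 higher in K20R, against 22.9% and 23.8% of all shared promoters. The lower genes were Smc4, Ncapg, Ncapg2, Smc6, Nsmce1, Nsmce2, Nsmce4a and Slf1, and none of them lies in a shifted stretch. Smc6 ranked at 94.7 and 89.9 in WT compared with 83.6 and 81.2 in K20R, and Nsmce4a, a subunit of the same SMC5/6 complex, at 70.3 and 70.6 in WT against 58.3 and 57.0 in K20R. The condensin core gene Smc4 ranked at 37.6 and 34.6 in WT and 28.1 in both K20R libraries. The higher genes were Ncapd2 (84.1 and 87.6 against 90.0 and 93.1), Nsmce3 (52.2 and 52.6 against 53.2 and 59.7) and Slf2 (63.6 and 62.4 against 76.8 and 70.5). The median difference over the 16 genes was -2.99 rank points, against 0.07 over all shared promoters. In log2 pileup, however, their median difference was 0.09, close to the 0.11 over all shared promoters. Ranked within the whole list, 8 were lower and 2 higher, against 32.2% and 15.7% of all shared promoters. Ranking by fold and leaving out a library were not tried for these genes.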
